A study of Homo sapiens with 4 samples.

Results

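AHNAK, AHNAK2, PLEC, EPPK1, DST, MACF1 and DSP encode some of the largest scaffold proteins of epithelial cells. Peaks of N6-methyladenosine (m6A), a methyl mark on adenosines of messenger RNA, were assigned to them when the summit of the peak lay inside the hg19 span of the gene. This gave 166 of the 115281 listed peaks: 88 of 63093 in untreated cells and 78 of 52188 in cells exposed to the primary bile acid chenodeoxycholic acid (CDCA). The genes were chosen by measured values, since some of their peaks were already known to be among the longest of both lists, so the lengths, positions and strengths below describe that choice and support nothing beyond it. The spans ran from 62.201 to 62.315 Mb on chromosome 11 for AHNAK, 105.403 to 105.445 Mb on chromosome 14 for AHNAK2, and 144.989 to 145.051 Mb on chromosome 8 for PLEC. EPPK1 lay at 144.939 to 144.953 Mb on chromosome 8, DST at 56.322 to 56.82 Mb and DSP at 7.541 to 7.587 Mb on chromosome 6, and MACF1 at 39.546 to 39.953 Mb on chromosome 1. MACF1 and DSP are read from the plus strand and the other genes from the minus strand.

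GES-1, an immortalised line labelled as human gastric epithelium and grown in RPMI-1640, was the only cell type. Input and m6A immunoprecipitation were each sequenced from untreated cells and from cells kept in 100 µM CDCA for 48 h, which gave 4 libraries. Only the lists of the 2 immunoprecipitations were used here. As each condition had 1 library, no test between conditions was possible, and differences between the lists and variation between libraries cannot be told apart. The 95% intervals (exact Clopper-Pearson) cover counting error only. They treat peaks as independent, although many lie in the same gene, so they may be too narrow. The title of the series places the work in bile acid-induced intestinal metaplasia of the stomach and the m6A demethylase ALKBH5, and its design compares m6A sites with and without CDCA. Cell identity could not be checked against marker genes, since the lists hold peaks and no expression values.

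Background on these proteins helps to read the peaks. AHNAK and its relative AHNAK2 are scaffolds built from long arrays of near-repeated units that are encoded mostly by a single very large exon, and they lie under the plasma membrane. Plakins tie the cytoskeleton to cell junctions: plectin (PLEC) links intermediate filaments to hemidesmosomes and to other filaments, epiplakin (EPPK1) consists of plakin repeats and binds keratins, and desmoplakin (DSP) anchors keratins to desmosomes. Dystonin (DST) and MACF1 are spectraplakins, which join actin to microtubules, and a short epithelial form of dystonin belongs to the hemidesmosome. m6A is generally found near stop codons and in unusually long internal exons of messenger RNA, whereas most short exons carry little of it.

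Most m6A peaks of these genes lay in the 2 longest spans. The control list held 41 peaks in DST, 28 in MACF1, 9 in AHNAK2, 6 in AHNAK, 3 in PLEC, 1 in EPPK1 and none in DSP. The CDCA list held 30 in DST, 24 in MACF1, 10 in AHNAK2, 10 in AHNAK, 2 in PLEC, 2 in EPPK1 and none in DSP. Thus DST, MACF1 and PLEC had fewer CDCA than control peaks and AHNAK, AHNAK2 and EPPK1 had more. The CDCA list was itself shorter, with 52188 peaks against 63093 in control. With equal numbers of peaks in both lists, DST had 39 control and 30 CDCA peaks and MACF1 had 26 and 24. PLEC, AHNAK2 and EPPK1 differed by only 1 peak each. With a fold enrichment of at least 8, MACF1 had 17 control and 18 CDCA peaks, so its order turned, and AHNAK2 and EPPK1 had equal numbers in both lists (8 and 8, 1 and 1). By bases covered in control the genes kept the order of their control counts, whereas in CDCA AHNAK stood before AHNAK2. AHNAK2, with more CDCA than control peaks, had fewer CDCA bases. Peaks covered 19.3 and 14.5 kb of DST (control and CDCA), 16.4 and 14.3 kb of MACF1, and 12.2 and 9.3 kb of AHNAK2. They covered 11.6 and 12.7 kb of AHNAK, and 7.69 and 7.38 kb of PLEC. As a share of the span, AHNAK2 led with 29.0% and 22.2%, followed by PLEC (12.4% and 11.9%) and AHNAK (10.2% and 11.2%). The shares were lower in DST (3.87% and 2.91%) and MACF1 (4.04% and 3.51%). These are shares of the genomic span, introns included, and exons were not assigned, so they give no density along the transcript.

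**Figure D1:**
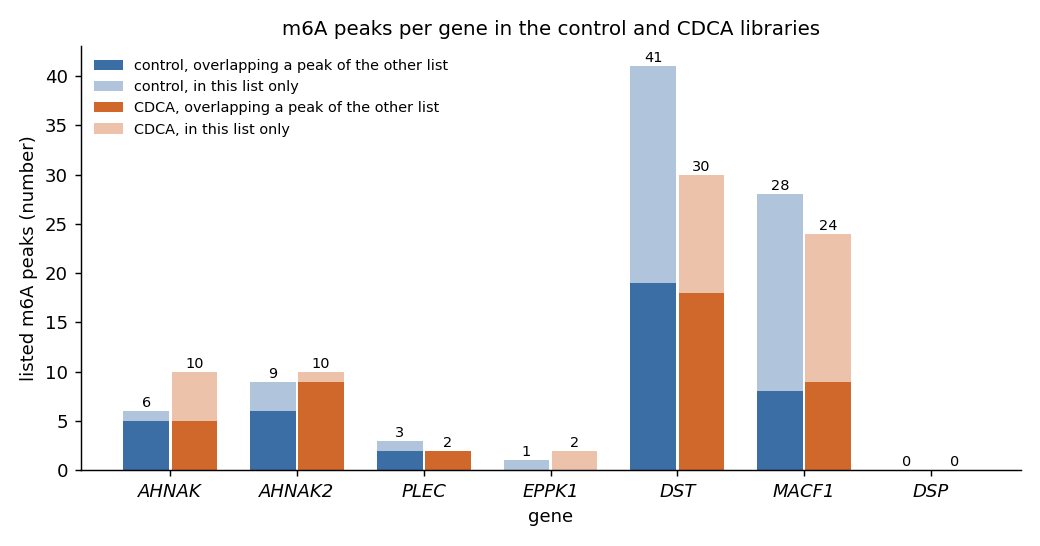
Number of listed m6A peaks (vertical axis) per gene (horizontal axis) in the control (blue) and CDCA (orange) lists; full colour marks peaks that overlap a peak of the other list and pale colour those in one list only. DST and MACF1 hold 69 of the 88 control and 54 of the 78 CDCA peaks, and DSP holds none.

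Of the peaks in these genes, 40 of 88 in control (45.5%, 34.8 to 56.4) overlapped the CDCA list by 1 bp or more, against 18.2% of all control peaks. In the CDCA list it was 43 of 78 (55.1%, 43.4 to 66.4), against 22.2% of all CDCA peaks. The genes also held more strong peaks, taken here as a −log10 q of at least 100: 35 of 88 in control and 31 of 78 in CDCA, or 39.8% and 39.7%, against 7.77% and 7.90% of all peaks. Strength and overlap went together in both lists, and within a band of strength the genes stood near the background. Of the strong peaks, 29 of 35 control and 30 of 31 CDCA peaks overlapped the other list, where 87.6% and 91.2% of all strong peaks did. Below a −log10 q of 20 it was 2 of 18 control and 3 of 25 CDCA peaks, or 11.1% and 12.0%, against 6.97% and 8.93% of all peaks in that band. Counted in bases, 44018 bp were common to both lists, which is 65.3% of the bases covered in control and 75.0% of those in CDCA. Over the whole lists the common bases were 23.7% and 28.3%. Between peaks over 1000 bp of both lists, they were 76.1% and 85.1% in these genes and 49.2% and 57.5% elsewhere. Long peaks in both lists were part of the choice of genes, so the shares of common bases describe that choice.

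Long peaks were part of the reason why these genes were chosen, so their share of broad peaks describes that choice. EPPK1 and DSP had no broad peak. Peaks over 1000 bp numbered 16 in each list, which is 18.2% of the control and 20.5% of the CDCA peaks of these genes, against 1.79% and 1.84% of all peaks. All 16 CDCA peaks and 15 of the 16 control peaks of that length overlapped the other list, close to the 94.9% and 94.1% of all peaks over 1000 bp. Among the 10 longest peaks of a list, 5 in control and 3 in CDCA belonged to AHNAK, AHNAK2, PLEC or MACF1. In control the other 5 were on chromosome 5 at 433840 to 437524 (3685 bp), chromosome 9 at 6012052 to 6015507 (3456 bp) and 33575401 to 33578478 (3078 bp), chromosome 20 at 62193963 to 62197377 (3415 bp) and chromosome 3 at 159141262 to 159144402 (3141 bp). In CDCA the other 7 lay on chromosomes 2, 9, 18 and 21 and measured 2859 to 3790 bp. No peak of these genes was among the 10 with the highest −log10 q. The median local background under the broad peaks of these genes was 43.4 in control and 31.5 in CDCA, and under the remaining broad peaks it was 12 in both lists.

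**Figure D2:**
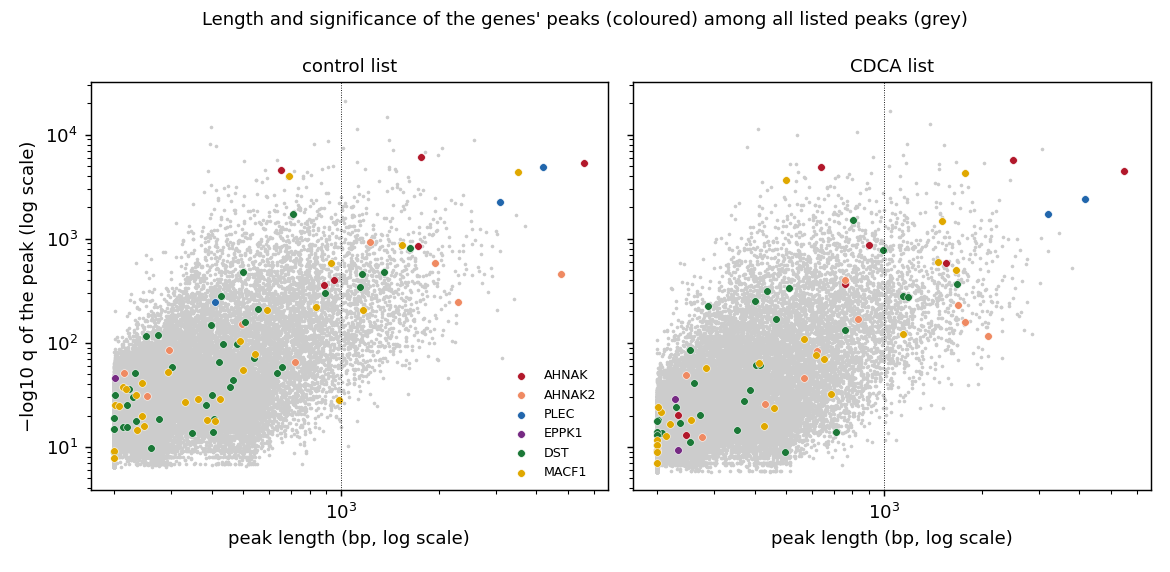
Peak length in bp (horizontal, log scale) against the authors' −log10 q (vertical, log scale) for every listed peak (grey) and for the peaks of the named genes (coloured), in the control (left) and CDCA (right) lists; the dotted line marks 1000 bp. The AHNAK peaks of 5607 bp and 5502 bp are the points farthest to the right, and most peaks of DST and MACF1 lie within the grey cloud.

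In AHNAK, all strong peaks, in the sense of −log10 q, lay in one compact block in both lists. All 6 control peaks lay between 62285313 and 62301536, 13.5 to 29.7 kb from the 5′ end of the span, and 6 of the 10 CDCA peaks lay between 62284581 and 62301583. In 20 kb, peaks covered 11.6 kb in control and 11.9 kb in CDCA. The block is far shorter than the span of 114 kb, and no control peak was listed in the remaining stretch towards the 3′ end. The most significant peak was at 62285313 to 62287081 in control, with a height of 5922, a fold of 27.4 and a −log10 q of 6046. In CDCA it was at 62284581 to 62287084, with a height of 5383, a fold of 29.6 and a −log10 q of 5669. Their summits were 16 bp apart, but the CDCA peak reached 732 bp further towards the 3′ end. The longest peak came next: the control and CDCA peaks of 5607 and 5502 bp had heights of 5168 and 4428, folds of 27.6 and 26.2, and summits 15 bp apart. They were first by length in both lists, yet only 2263rd and 1762nd by fold.

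A short AHNAK peak was as tall as the long ones. It ran from 62299819 to 62300470 in control (652 bp) and from 62299830 to 62300470 in CDCA (641 bp), with heights of 5909 and 5923, and folds of 15.2 and 17. Its summits were 1 bp apart and its ends towards the 5′ side were the same base. The pair at 62300653 to 62301536 in control and 62300823 to 62301583 in CDCA, nearest to the 5′ end, had heights of 659 and 623 and folds of 8.48 and 9.46. The pair at 62295842 to 62297569 and 62295929 to 62297478 had folds of 9.6 and 6.75, and here the summits were 560 bp apart. In 3 of the 5 AHNAK pairs the summits were at most 50 bp apart, and the others differed by 68 and 560 bp. The local background under the block, 76.8 to 388 in control, stood at or above the 99.6th percentile of its list.

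Each list had 1 strong AHNAK peak that the other lacked, and in both cases numbers were missing from the other list between the neighbouring peaks. Every listed peak carries a running number in order of position, and some numbers are missing. A missing number was taken here as a numbered peak left out of the deposited list, which the submitters did not state. The control peak at 62298652 to 62299602 (951 bp, fold 6.64, −log10 q 403) fell between CDCA peaks that ended at 62297478 and began at 62299830, and 2 CDCA numbers were missing between them. The CDCA peak at 62293190 to 62294090 (901 bp, fold 7.14, −log10 q 878) fell between control peaks that ended at 62292985 and began at 62295842, where 3 control numbers were missing. Their folds were in the 11.1th percentile of the control list and the 26.0th percentile of the CDCA list, and the lowest fold in either list was 6. Missing numbers were common: 92.1% of all strong control peaks and 97.5% of all strong CDCA peaks found in one list only had one in the same sense. A missing number gives no position within the interval, so whether it belonged to the same site was not tested.

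The other 4 AHNAK peaks of the CDCA list were weak and lay 68.6 to 113.9 kb from the 5′ end. Their heights ran from 12.2 to 28.1 and their −log10 q from 9.29 to 20.2, and none overlapped a control peak. A single control number was missing over the whole stretch that holds them. One of them, with its summit at 62201072, was 72 bp inside the boundary of the span (233 bp, fold 9.71). No peak summit of either list lay within 5 kb outside any of the 7 spans, so wider spans by that much would add no peak. Summits of AHNAK2, PLEC, EPPK1 and DST lay within 5 kb inside a boundary in both lists, and narrower spans were not tried.

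AHNAK2 had the same kind of block with a far lower background. In control, 8 of 9 peaks lay between 105404662 and 105419164, 25.8 to 40.3 kb from the 5′ end of the span, and covered 12.0 kb of a 20 kb window. In CDCA, 9 of 10 peaks lay between 105404677 and 105419299 and covered 9.03 kb. Both blocks ended close to the 3′ end of the gene. The most significant peak was also the closest to the 3′ end: 105404662 to 105405891 in control (1230 bp, height 655, fold 63.1, −log10 q 926) and 105404677 to 105405435 in CDCA (759 bp, height 310, fold 44.5, −log10 q 398). Their summits were 18 bp apart. The fold of the control peak was 290th of its list and that of the CDCA peak 533rd, the highest ranks by fold among the AHNAK and AHNAK2 peaks. The background under the AHNAK2 block was 8 to 17 in control and 5.8 to 15 in CDCA.

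**Figure D3:**
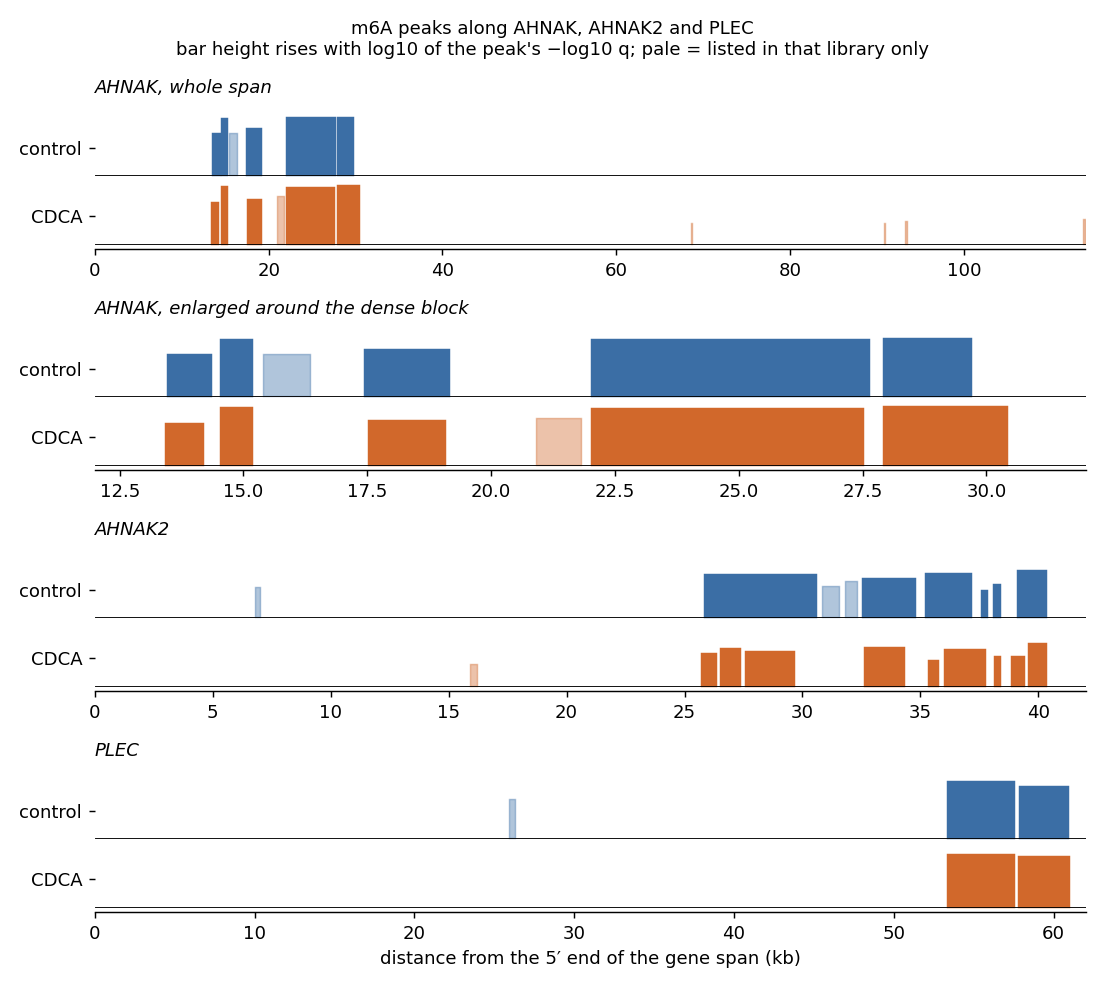
Position of every listed peak along AHNAK (whole span, then enlarged around its block), AHNAK2 and PLEC, in kb from the 5′ end of the span; the control list is above and the CDCA list below, box width is peak length, box height rises with the logarithm of the −log10 q, and pale boxes are in that list only. The 2 PLEC boxes have ends within 91 bp of each other in both lists, the AHNAK block differs by 1 pale box in each list and a CDCA box that reaches 732 bp further, and the AHNAK2 block has 8 control and 9 CDCA boxes.

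The AHNAK2 block was cut differently in the 2 lists. The longest control peak, 105414418 to 105419164 (4747 bp, height 456, fold 25.4), met CDCA peaks of 2097, 834 and 623 bp that together shared 3419 bp, or 72.0% of it. Control peaks of 1948 and 1230 bp met 2 CDCA peaks each. At 105410210 to 105412494 the control peak of 2285 bp had 1 partner, a CDCA peak of 1695 bp that lay wholly inside it, but their summits were 848 bp apart. The longest CDCA peak was the one of 2097 bp, at 105415345 to 105417441 (height 128, fold 18.4, −log10 q 115). Between 105412381 and 105415345 the CDCA list had no peak and 2 missing numbers, whereas the control list had peaks at 105412708 to 105413203 (fold 13.5, −log10 q 152) and 105413454 to 105414177 (fold 9.66, −log10 q 65.2). The bases common to both lists were 67.5% of the AHNAK2 bases covered in control and 88.5% of those in CDCA. Outside the block each list had 1 peak of its own, at 105438002 to 105438215 in control (fold 23.1, −log10 q 50.8) and at 105428819 to 105429093 in CDCA (fold 8.82, −log10 q 12.4).

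In PLEC, 2 adjoining broad peaks near the 3′ end of the gene made up all of the CDCA and nearly all of the control signal listed. The peak at 144993468 to 144997662 in control (4195 bp) had a height of 6649, a fold of 13.7 and a −log10 q of 4885, and was the tallest control peak of these genes. Its CDCA partner at 144993461 to 144997637 had a height of 3728, a fold of 11.1 and a −log10 q of 2424. The lists scale heights separately, so the 2 heights are no measure of change, and the summits were 3 bp apart. The neighbouring pair, 144990102 to 144993190 (3089 bp, fold 12) and 144990011 to 144993213 (3203 bp, fold 13.3), had summits 781 bp apart. Together the pairs shared 7259 bp, which is 94.4% of the PLEC bases in control and 98.4% in CDCA, the highest shares of the 7 genes. The backgrounds were 484 and 274 in control and 335 and 177 in CDCA, so that very tall summits went with folds that were only in the 66.8th to 83.3rd percentile of their lists.

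PLEC also had a strong control peak without a CDCA partner, far from that pair. It lay at 145024692 to 145025100, 26.05 kb from the 5′ end of the span (409 bp, height 351, fold 12.2, −log10 q 245). The nearest CDCA peak was 27055 bp away, and 9 CDCA numbers were missing in the interval that holds it.

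EPPK1, which lies beside PLEC on the same strand, had small peaks and no overlap between the lists. Control had 1 peak of 201 bp at 144942763 to 144942963 (height 37.1, fold 21.2, −log10 q 45.7). CDCA had peaks at 144941519 to 144941750 (height 12.8, fold 7.9, −log10 q 9.29) and 144946014 to 144946241 (height 26.2, fold 15.6, −log10 q 28.8). The background was 0.799 in control and 0.746 and 0.747 in CDCA, next to the lowest level of each list (0.798 and 0.745). The control peak was 1013 bp from the nearest CDCA peak, and 2 CDCA numbers were missing around it.

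DSP had no listed m6A peak in either library. The nearest control peaks ended 126.46 kb before its span and began 7.36 kb after it. Their numbers were consecutive, so no control number was missing at DSP. In the CDCA list the nearest peaks were 144.83 kb before and 22.52 kb after, with 2 missing numbers in between. The level of the DSP transcript was not measured here, so an unmethylated and a scarce transcript cannot be told apart.

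**Figure D4:**
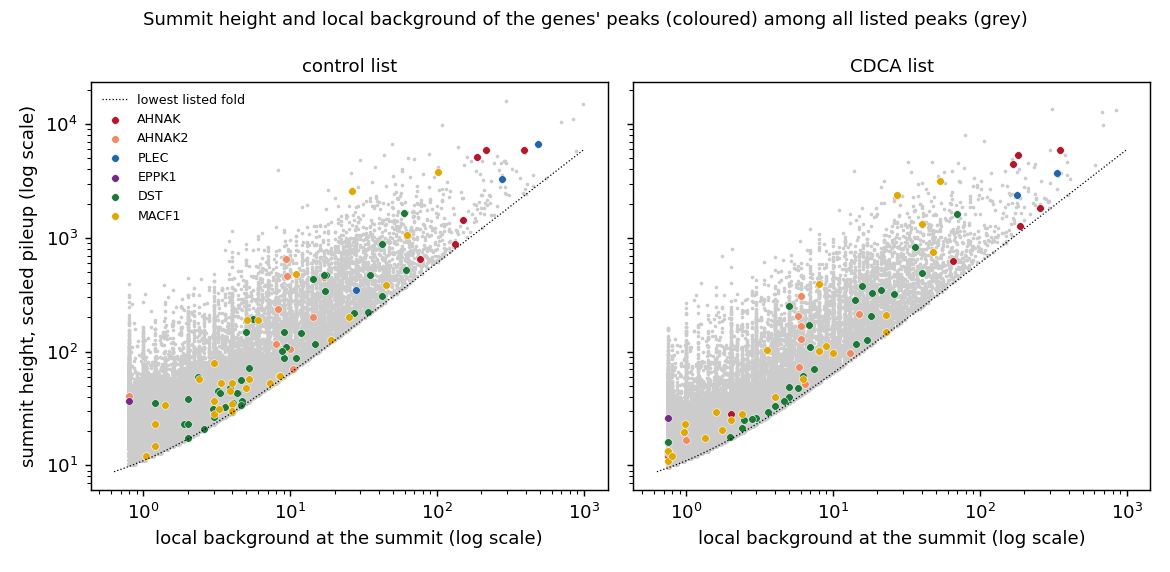
Local background under the summit (horizontal, log scale) against summit height in the authors' scaled pileup units (vertical, log scale) for all peaks (grey) and the peaks of the named genes (coloured), in the control (left) and CDCA (right) lists; the dotted line is the lowest listed fold, 6. AHNAK and PLEC peaks reach backgrounds of 388 and 484 in control, and several lie close to the dotted line, while the EPPK1 peaks sit at the lowest background.

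DST combined strong shared sites in the 3′ part of the gene with scattered weak peaks. All 13 strong control peaks and all 11 strong CDCA peaks lay 262 to 497 kb from the 5′ end of a span of 498 kb. The most significant was at 56419960 to 56420669 in control (710 bp, height 1670, fold 27.8, −log10 q 1722) and 56419945 to 56420748 in CDCA (804 bp, height 1613, fold 22.7, −log10 q 1526), with summits 1 bp apart. A broad neighbour at 56416973 to 56418598 in control (1626 bp, fold 20.7) had a shorter CDCA partner at 56416984 to 56417975 (992 bp, fold 22.3). Most shared DST peaks, weak ones included, had summits close together in both lists. Of 17 DST pairs matched one to one, 14 had summits at most 50 bp apart, with a median of 12 bp. Peaks that met more than 1 peak of the other list were not counted in these pairs. Over all such pairs of the 2 lists the median was 46 bp, and over pairs in which both peaks were strong it was 22 bp. Near the 3′ end of the gene, 2 short pairs had folds of 8.36 and 7.16 in control and 11.9 and 18.9 in CDCA.

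A second group of DST peaks lay 335 to 355 kb from the 5′ end. In the densest 20 kb of the gene, control had 8 peaks covering 6.62 kb and CDCA had 4 covering 4.77 kb. The strongest peak of these genes listed in control alone was in this group, at 56471470 to 56472626 (1157 bp, height 435, fold 28.6, −log10 q 461). It lay 554 bp from the nearest CDCA peak, and 2 CDCA numbers were missing between the CDCA neighbours at 56470202 and 56473180. It was also the only peak over 1000 bp in these genes without a partner. The longest CDCA peak of DST, 56468523 to 56470202 (1680 bp, fold 22.8), met 2 control peaks. The next control peak, 56472842 to 56474197 (1356 bp, fold 26), and its CDCA partner, 56473180 to 56474321 (1142 bp, fold 15.9), had summits 7 bp apart. A further pair at 56483803 to 56484947 (1145 bp, fold 13.1) and 56483806 to 56484991 (1186 bp, fold 17) closed the group. One more strong DST peak was in control alone, at 56323087 to 56323359 (fold 15, −log10 q 120), 393 bp from a CDCA peak.

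MACF1 held the sites with the highest fold enrichment of all 7 genes. At 39879602 to 39880291 in control the fold was 94.5, with a height of 2583 and a −log10 q of 4032. The CDCA partner at 39879805 to 39880303 had a fold of 85.9, a height of 2403 and a −log10 q of 3651, and the summits were 45 bp apart. These folds were 78th and 80th of their lists. Next to them, a control peak of 3499 bp at 39875247 to 39878745 (height 3808, fold 37.3, −log10 q 4389) was the longest and most significant of the gene. It met 2 CDCA peaks, of 1514 bp at 39875328 to 39876841 (fold 32.5, −log10 q 1464) and of 1776 bp at 39876994 to 39878769 (height 3162, fold 58.6, −log10 q 4261). The second of these had its summit 6 bp from that of the control peak. RefSeq lists KIAA0754, a reading frame inside the MACF1 locus, among the synonyms of MACF1. The lists give no strand and no transcript, so the transcript behind these peaks was not determined.

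The strong MACF1 sites lay in a limited part of the gene. All 8 strong control and 7 strong CDCA peaks were 252 to 344 kb from the 5′ end of a span of 407 kb. At the 5′ side of this region, control peaks at 39797695 to 39798623, 39799851 to 39800690 and 39801671 to 39802260 had folds of 40.1, 31.9 and 27.4. Their CDCA partners had folds of 43.8, 11.2 and 23.3. The second partner was below the limit for a strong peak, with a −log10 q of 75.9 against 220 in control. In that pair the summits were 241 bp apart, and the local background was 5.04 in control and 9.0 in CDCA. The −log10 q was lower in CDCA at all 7 MACF1 pairs and at 61.5% of all pairs. With 1 library per condition, a change with CDCA and variation between libraries cannot be told apart here, and the cause was not tested. The first CDCA partner was the broader one, with 1664 bp against 929 bp. A pair at 39852693 to 39854228 (1536 bp, fold 16.7) and 39852845 to 39854307 (1463 bp, fold 15.4), and a pair at 39887577 to 39888748 (1172 bp, fold 8.35) and 39887575 to 39888717 (1143 bp, fold 8.84), completed the broad sites. All 7 MACF1 pairs had summits within 241 bp, and 5 of them within 50 bp. One strong MACF1 peak was in control alone, and 3 CDCA numbers were missing around it.

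**Figure D5:**
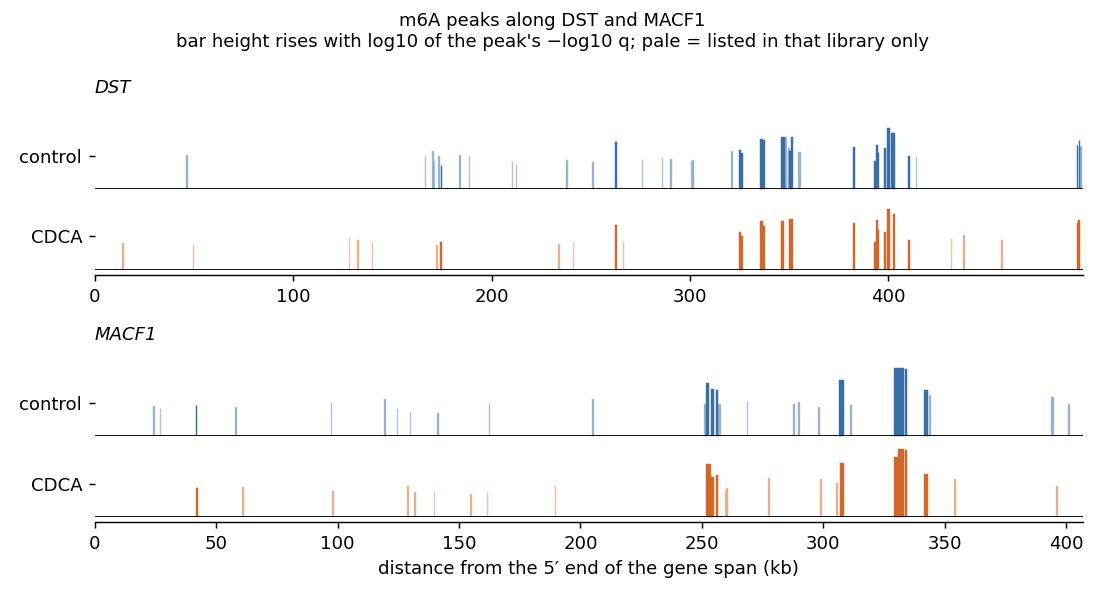
Position of every listed peak along DST and MACF1 in kb from the 5′ end of the span, with the control list above and the CDCA list below; box width is peak length, box height rises with the logarithm of the −log10 q, and pale boxes are in that list only. Strong peaks in full colour recur at the same places in both lists, and most pale peaks are low and lie in the 5′ part of each gene or between the strong sites.

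The weaker peaks of DST and MACF1 were mostly in one list only, as were weaker peaks in general. Below a −log10 q of 100 the 2 genes had 48 control and 36 CDCA peaks, of which 9 in each list overlapped the other (18.8%, 8.95 to 32.6, and 25.0%, 12.1 to 42.2). The background for peaks of that strength was 12.3% in control and 16.3% in CDCA, inside both intervals. In MACF1, 12 of the 20 weaker control peaks and 9 of the 17 weaker CDCA peaks lay towards the 5′ end from all strong ones, and 1 in each list had a partner. In DST it was 12 of 28 and 9 of 19, again with 1 partner in each list. Peaks in one list only had a median length of 266.5 bp in control and 232.5 bp in CDCA for DST, against 500 and 450.5 bp for shared ones. For MACF1 the medians were 271 and 213 bp against 884.5 and 1143 bp. The RefSeq gene table for GRCh38.p14, used for names only, places other genes over most of these loci: DST-AS1 and pseudogenes over DST, the protein-coding PLD4 over AHNAK2, MIR661 and a long noncoding RNA over PLEC, a long noncoding RNA and pseudogenes over MACF1, and DSP-AS1 over DSP. It lists none over AHNAK or EPPK1. As the lists give no strand, a peak where such a gene overlaps cannot be assigned to one of the 2 genes. The hg19 positions of the overlapping genes were not used, so which peaks of AHNAK2, PLEC, DST and MACF1 this concerns was not determined.

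Summed over the 7 genes, 48 control peaks and 35 CDCA peaks were in one list only. Of these, 42 and 29 lay between neighbours in the other list with at least 1 number missing, where 73.2% of all control-only and 63.2% of all CDCA-only peaks did. All 6 strong control peaks and the 1 strong CDCA peak were among them, as 92.1% and 97.5% of all such strong peaks were. A peak of the other list lay within 1000 bp of 5 of the 6 and of the 1, against 22.6% and 20.5% of all such strong peaks. With weaker peaks included, it was 14 of the 48 control-only and 7 of the 35 CDCA-only peaks. Over the whole lists it was 6708 of 51591 and 6334 of 40570. The strong peaks are few and the genes were chosen partly for their long peaks, so these distances describe that choice. Between the first and last listed peaks of each gene, 111 numbers were missing in control and 80 in CDCA, most of them in DST (61 and 47) and MACF1 (41 and 24). Summit positions in the 23 pairs of strong peaks were near the background: 17 pairs had summits within 50 bp, or 73.9%, against 76.1% of all 2903 strong pairs. The remaining 6 differed by more, up to 848 bp in AHNAK2, 781 bp in PLEC and 560 bp in AHNAK.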

How the data were processed

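The authors deposited one peak list per m6A immunoprecipitation library. TopHat2 2.0.13 and MACS2 2.1.0 are named, with the build hg19, in the submitters' processing notes, without their roles. Inputs, filters and the handling of reads that map to several places, which bears on the repeats of AHNAK, AHNAK2 and EPPK1, were not stated. Per the file headers, each peak has a start, end, summit, summit height (a pileup signal), fold enrichment (a ratio), and its p-value and q-value, both as −log10. Heights were whole multiples (tolerance 0.02 steps) of 0.862 in control and 0.64 in CDCA, so the weakest summits held 12 and 15 steps, and depth in reads is unknown. No deposited fold was below 6. Local background was computed as (height + 1) / fold − 1; its Poisson tail matched the deposited −log10 p to within 2% at 99.9% of control and 100% of CDCA peaks below 200.

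Peaks were assigned by summit to the given spans. An hg19 annotation and genome were not used here, so exons, coding and untranslated regions were not assigned and no sequence is shown. Genes and thresholds were chosen with earlier results of these data known. All 7 genes were named, with the most significant and longest peak of each per list, all their peaks over 1000 bp, the 5 most significant peaks per list found in one list only at a −log10 q of at least 100, and the 10 longest peaks of each list. Peaks named beyond these were chosen after their values were seen. Alternatives covered the span rule, peak thresholds, list size and the definition of overlap. The overlap step, tested on 5000 simulated peaks, gave the right answer for 100%. The tools were Python 3.11.15, scipy 1.17.1 (intervals), numpy 2.4.6, pandas 2.3.3 and, for figures, matplotlib 3.10.9.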

Additional observations from a re-analysis of the deposited data

How the results depend on the processing

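The numbers of peaks and the shares overlapping the other list were the same when a peak counted by any overlap with a span, when spans were widened by 5 kb, and when sharing needed 50% of the shorter peak or a summit inside the other peak. A −log10 q of at least 100 left 35 control and 31 CDCA peaks, of which 80.0% and 96.8% overlapped a peak of the other list at that level, and a lower limit of 20 gave a CDCA share of 75.5%. Without DST and MACF1, an alternative chosen after seeing the data, 19 control and 24 CDCA peaks remained, and 68.4% and 66.7% overlapped the other list. At a fold of at least 8, MACF1 had 1 CDCA peak more than control peaks, the opposite order to the full lists. The cause was not tested. The other alternatives left the 4 totals and shares within 1.5 times the count or within the 95% interval. No paired analysis was possible because there was 1 library per condition and no test.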
